A study of Mus musculus with 6 samples.

Results

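The 10 genes described here encode transcription factors that mark the naive state of mouse embryonic stem cells (ESCs), namely Nanog, Esrrb, Zfp42, Klf2, Klf5, Tfcp2l1, Tbx3, Prdm14, Nr0b1 and Nr5a2. They were picked by gene symbol from a deposited table of 17912 genes, and all 10 were found and tested. The table held 6 poly(A) RNA libraries labelled as mouse ESCs. A set of 3 libraries came from samples with the genotype EXOSC2_KD, each titled as an shEXOSC2 clone (clones 5, 6 and 7), and 3 came from samples with the genotype WT, titled as controls (replicates 1, 2 and 3). EXOSC2 belongs to the RNA exosome, a complex that trims and degrades RNA starting at the 3′ terminus. The sources used here do not give the hairpin sequence, the sex or age of the line, or whether the controls carried any hairpin or share a parent with the clones. Separate cultures are not stated for the libraries, and p-values therefore reflect only how these samples vary, which may be technical. No treatment is named for either group.

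Naive ESCs stand for the epiblast of the embryo before implantation. Their self-renewal is known to rest on a network of transcription factors that activate one another and feed on LIF and STAT3 signalling, around a core of OCT4 (Pou5f1) and SOX2. When ESCs leave the naive state the factors are shut off before a lineage is chosen, which is why they serve as its markers. Within the network several factors overlap in function, with KLF2, KLF4 and KLF5 as the best known example.

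All levels are deposited read counts per gene scaled by DESeq (scaled counts), where 1 read was worth between 0.923 and 1.08 in the 6 libraries. Recovered reads per library ran from 24268430 to 26494985 in the clones and from 21107761 to 24633836 in the controls. Exosc2 itself was lower in every clone, at 45.3% of the control mean, with a log2 fold change of -1.14 ± 0.13 (SE) and an adjusted p of 5.1e-05 in limma. Each fold change is shEXOSC2 over control, taken on log2(scaled count + 1) and fitted with limma over 15179 genes with a mean of at least 10. Among all tested genes, 38.3% were called lower and 35.2% higher, beside which the marker counts below are to be read. Of 12 ESC markers, 11 were lower in the clones and 1, Pou5f1, was higher, and Utf1 and Zfp42 had no read in any clone. The falls ran from no read left, for Utf1 and Zfp42, to 48.4% of the control mean left for Fgf4. Nanog, Esrrb and Zfp42 are also among the 10 factors, so the marker count is not independent of the results below. By most of these markers the clones go against their ESC label, and they are called shEXOSC2 clones here. Of 9 tested fibroblast markers, 8 were higher and 1 was lower in the clones, and their summed scaled count ran from 22133 to 38750 in the clones and from 5418 to 6576 in the controls. In the clones that sum was mostly Col1a1 (12575), Col1a2 (8690) and Col3a1 (4121). The fibroblast marker called lower was Thy1, at 209 in the clones and 394 in the controls. No fibroblast marker was at 0 in either group, although Lum and Dcn were near it, with Dcn at 28.0 in the clones and 8.83 in the controls. Of 7 tested trophoblast markers, 5 were lower and 1 was higher. Their sum lay between 1233 and 1467 in the clones and between 4146 and 5474 in the controls. It was mostly Tfap2c, at 882 in the clones and 3356 in the controls, and Cdx2 had no read in the clones. Of 5 tested primitive endoderm markers, Gata4 and Sox7 were lower, Dab2 and Pdgfra were higher and Gata6 was not called. Their sum lay between 1870 and 2336 in the clones and between 430 and 680.0 in the controls, and in the clones it was mostly Dab2 (1589) and Pdgfra (561), with Sox17 at no read. Of 7 tested surface epithelium markers, 5 were higher, and Krt18 and Grhl3 were lower. Their sum lay between 27944 and 29663 in the clones and between 3315 and 11188 in the controls, with Ehf alone at 16997 in the clones and 1.69 in the controls. Krt6a had no read in the controls, and Trp63 is not in the table. The part of these cell types in the results below was not tested. In bulk RNA, fewer cells that express a gene and less of its RNA per cell cannot be told apart.

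All 10 naive factors were lower in the clones, and no clone overlapped any control for any of them. In limma 10 of 10 were called lower at an adjusted p under 0.05, with adjusted p from 4.7e-09 to 1.1e-06 and all 3 clones below all 3 controls for each gene. Calls in this direction were common, since 38.3% of all tested genes were called lower and 40.6% were lower without overlap. The size of the falls set the list apart from the bulk of genes as a description, with a median log2 fold change of -7.38 against -0.07 over all tested genes. An exact permutation test (two-sided) on each gene returned p = 0.1, and no lower value is possible with 3 libraries a side. The factors then divided by how much RNA was left. A group of 5 (Nanog, Esrrb, Zfp42, Prdm14 and Nr5a2) had at most 10 reads over the 3 clones together, and the other 5 (Klf5, Tbx3, Klf2, Nr0b1 and Tfcp2l1) had more. This division was made after the values were seen, and no member fell between 7 and 60 reads. Among 7409 tested genes with a control mean of at least 500, 87 (1.17%) were at 10 reads or fewer over the clones.

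**Figure D1:**
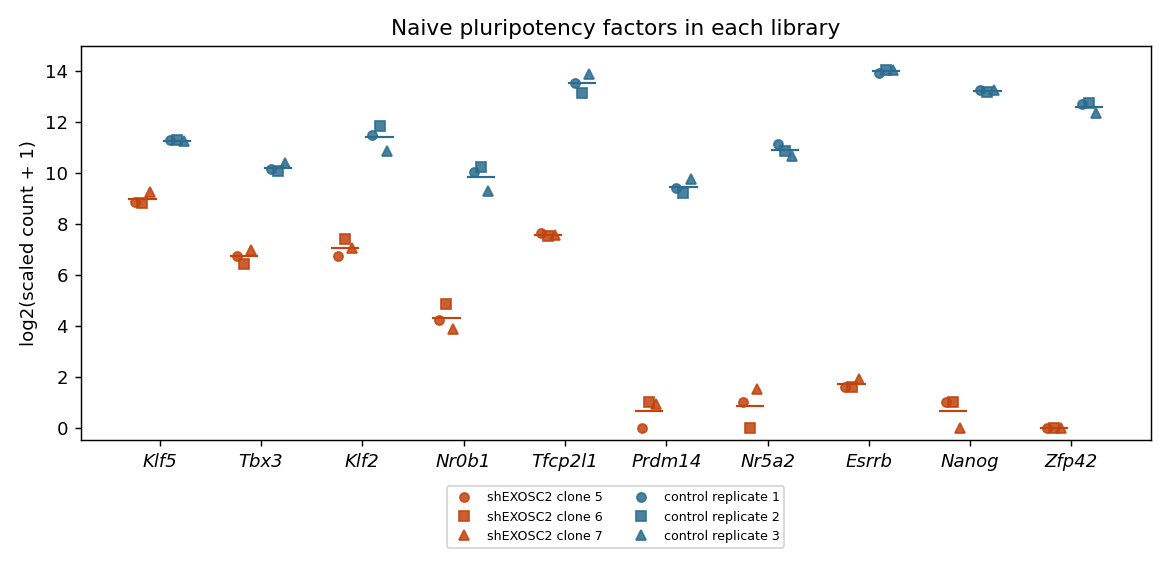
Each point is 1 library and each bar the mean of a group, on a log2(scaled count + 1) axis, with shEXOSC2 clones in orange left of controls in blue. No clone overlaps a control for any factor, and the clones lie near 0 for Prdm14, Nr5a2, Esrrb, Nanog and Zfp42.

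Nanog encodes the homeodomain factor that sustains self-renewal when it is overexpressed. The gene (ENSMUSG00000012396.12, chromosome 6, positions 122707489 to 122714633 in GRCm38) had 1, 1 and 0 reads in clones 5, 6 and 7, against 10455, 8588 and 9875 reads in control replicates 1, 2 and 3. On the scaled count the clones averaged 0.674 ± 0.584 and the controls 9698 ± 366 (SD, n = 3 each). What was left came to 0.00695% of the control mean, with an exact 95% Poisson interval of the clone reads of 0.000842% to 0.0251%. These intervals, and the floors used below, take in counting error alone, because reads copied by PCR and carrying no molecular identifier cannot count as independent molecules.

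Esrrb encodes an orphan nuclear receptor that can stand in for Nanog in several assays. It measured 1.99, 2.05 and 2.77 in clones 5, 6 and 7, against 15711, 16830 and 17098 in control replicates 1, 2 and 3. The gene lies on chromosome 12, positions 86361117 to 86521628. With 7 reads over the clones, it kept 0.0137% of the control mean (interval 0.00552% to 0.0283%).

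Zfp42, which encodes the zinc finger protein REX1 and is the standard reporter gene of the naive state, had no read in any clone. The controls held 6668, 6951 and 5223 in replicates 1, 2 and 3. The gene lies on chromosome 8, positions 43295063 to 43306980, on the minus strand. At a floor of 3 reads per library, the clones held at most 0.0469% of the control mean. The other 9 factors each had at least 2 reads over the clones. Nanog and Zfp42 both have annotated pseudogenes, so how the authors' counting split shared reads is uncertain.

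Nr5a2 (LRH-1) and Prdm14 complete the nearly silent group. Nr5a2, an orphan nuclear receptor known to bind the Pou5f1 promoter, measured 0.995, 0 and 1.85 in clones 5, 6 and 7, against 2272, 1891 and 1633 in control replicates 1, 2 and 3. That left 0.0490% of the control mean (interval 0.0101% to 0.143%). Prdm14 measured 0, 1.03 and 0.923 in clones 5, 6 and 7, against 679, 594 and 874 in control replicates 1, 2 and 3. It encodes a PR-domain protein that represses FGF receptor and DNA methyltransferase genes, and it kept 0.0908% of the control mean (interval 0.0110% to 0.328%). Both genes lie on chromosome 1, at positions 136842571 to 136960448 and 13113457 to 13127163. The fitted log2 fold changes of these 5 genes, between -12.61 for Zfp42 and -8.81 for Prdm14, depend on the pseudocount and on the control level, and no order is read from them.

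Klf5 kept the largest share of its control level. This Krüppel-like factor, known in ESCs for proliferation and for holding off primitive endoderm and in adult tissue for epithelial renewal, measured 469, 453 and 611 in clones 5, 6 and 7, against 2494, 2498 and 2431 in control replicates 1, 2 and 3. The gene lies on chromosome 14, positions 99298691 to 99315036. Its log2 fold change was -2.29 ± 0.14 (SE, limma adjusted p = 1.0e-06), and the clones held 20.6% of the control mean. Clone 7 was the highest of the clones, while the 3 controls stood close together.

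Tbx3, a T-box repressor linked to both self-renewal and extraembryonic endoderm, measured 106, 86.3 and 126 in clones 5, 6 and 7, against 1154, 1082 and 1348 in control replicates 1, 2 and 3. The clones held 8.90% of the control mean (log2 fold change -3.49 ± 0.18). The gene lies on chromosome 5, positions 119670669 to 119684724, and its exons overlap those of the antisense gene Tbx3os1. Tbx3os1 averaged 4.22 in the clones and 14.3 in the controls, and without knowing how strand was used in counting, reads of the pair cannot be told apart.

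Klf2, a Krüppel-like factor whose protein is marked for degradation by ERK signalling in ESCs, measured 106, 170 and 132 in clones 5, 6 and 7, against 2890, 3719 and 1873 in control replicates 1, 2 and 3. It kept 4.81% of the control mean, with a log2 fold change of -4.34 ± 0.26. The gene lies on chromosome 8, positions 72319033 to 72321656. Control replicate 3 was the lowest control, and it was still above every clone.

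Nr0b1 (DAX1), a nuclear receptor without a DNA-binding domain that binds OCT4 and NR5A2 as a cofactor, measured 17.9, 27.7 and 13.8 in clones 5, 6 and 7, against 1047, 1204 and 624 in control replicates 1, 2 and 3. The clones kept 2.07% of the control mean (log2 fold change -5.53 ± 0.32). Nr0b1 is X-linked, at positions 86191764 to 86195947.

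Tfcp2l1, a CP2-family factor that acts downstream of LIF and STAT3, kept 1.58% of the control mean. It measured 198, 186 and 191 in clones 5, 6 and 7, against 11884, 9091 and 15459 in control replicates 1, 2 and 3, a log2 fold change of -5.95 ± 0.18. The clones were nearly equal while the controls spread widely. The gene lies on chromosome 1, positions 118627945 to 118685168.

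**Figure D2:**
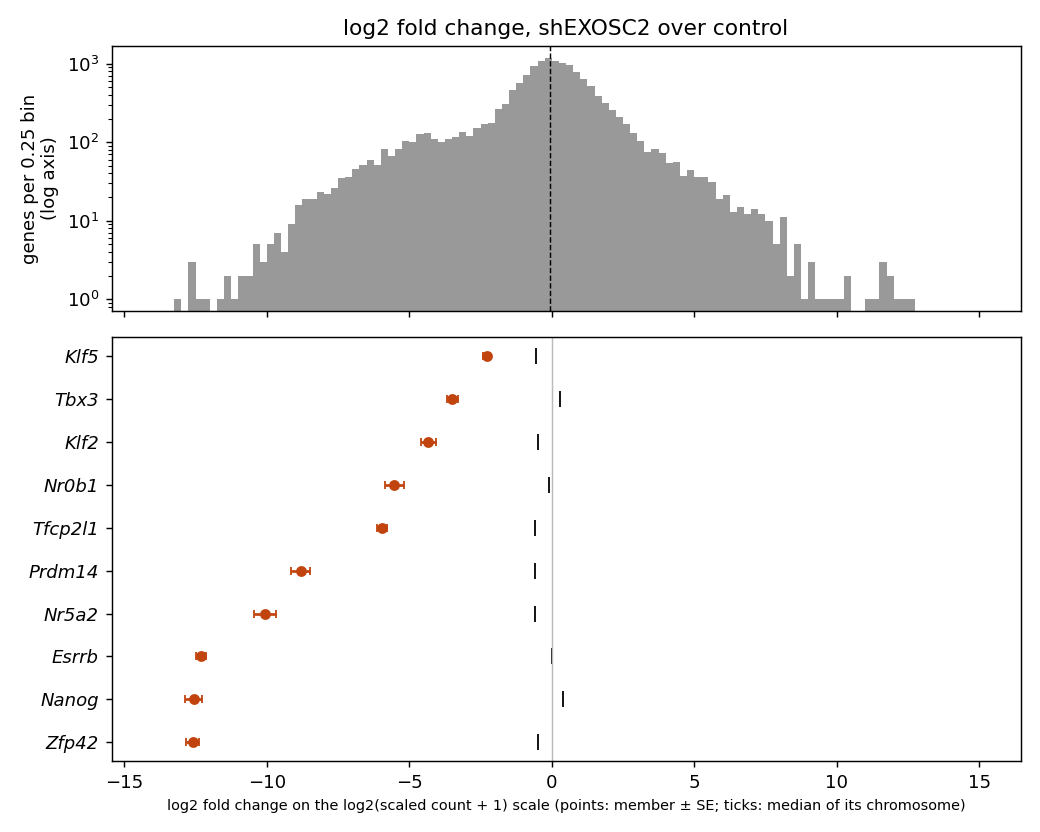
The upper panel counts all 15179 tested genes in bins of the log2 fold change (log axis), with the median of -0.07 dashed. The lower panel gives each naive factor with its SE as a point and the median of its chromosome as a tick, and all 10 points lie left of their ticks, from -2.29 for Klf5 to -12.61 for Zfp42.

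Starts of 7 of the 10 factors were covered by the RefSeq promoter table (GRCm38.p6), while Klf5, Tbx3 and Prdm14 had no entry. The 250 bases upstream of each start were searched on both strands for TTTGCAT, the core bound by POU factors such as OCT4, for the OCT-SOX composite motif, which starts with those letters and goes on with a SOX site, for GGGNGGG, the GC box bound by KLF and SP factors, and for TATAAA. The windows of Nanog and Zfp42, whose RNA was nearly or wholly gone, and of Tfcp2l1, which kept a residue in every clone, are shown because they hold POU matches (Nanog and Zfp42) or a TATAAA match (Tfcp2l1). Capitals mark every match to these motifs.
Nanog: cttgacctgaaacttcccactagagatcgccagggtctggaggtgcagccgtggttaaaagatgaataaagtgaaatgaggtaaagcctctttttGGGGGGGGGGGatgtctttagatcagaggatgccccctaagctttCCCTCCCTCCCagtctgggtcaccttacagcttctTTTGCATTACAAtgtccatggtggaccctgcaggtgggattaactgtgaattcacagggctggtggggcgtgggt
Zfp42: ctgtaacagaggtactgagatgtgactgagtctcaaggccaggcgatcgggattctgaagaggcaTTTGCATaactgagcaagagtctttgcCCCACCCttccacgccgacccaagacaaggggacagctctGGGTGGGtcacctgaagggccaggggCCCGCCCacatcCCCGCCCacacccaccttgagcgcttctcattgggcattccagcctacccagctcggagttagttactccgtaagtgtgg
Tfcp2l1: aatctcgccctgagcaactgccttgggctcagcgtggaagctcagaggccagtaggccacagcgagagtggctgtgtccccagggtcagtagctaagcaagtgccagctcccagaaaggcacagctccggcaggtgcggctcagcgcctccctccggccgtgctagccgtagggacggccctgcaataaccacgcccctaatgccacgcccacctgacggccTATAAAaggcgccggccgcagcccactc
The windows are chr6:122707239-122707488 on the plus strand, chr8:43307010-43307259 on the minus strand and chr1:118627695-118627944 on the plus strand, each written 5′ to 3′.

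The Nanog window held the composite TTTGCATTACAA starting 75 bases upstream of the start, and the Zfp42 window held TTTGCAT 185 bases upstream. TTTGCAT was found in 4.12% of 32851 windows of the same length and the composite in 11 of them (0.0335%). Matches to GGGNGGG stood in the windows of 5 of the 7 factors and in 44.8% of all windows. In Nanog and Esrrb some of them overlap one another within a run of G. TATAAA stood 28 bases upstream of the Tfcp2l1 start and 32 bases upstream of the Nr0b1 start, and in 12.4% of all windows. One of the Nr5a2 windows also held it, on the opposite strand and 181 bases upstream. No window of the 7 held CAAGGTCA, the site of ESRRB and NR5A2 (1.33% of all windows), or TTCCNGGAA, a STAT site (0.913%), which says only that these letters are not in these 250 bases. The windows differed in CpG dinucleotides. The observed over expected ratio was 0.915 for Klf2, 0.609 for Tfcp2l1 and 0.546 for Nr0b1, which kept a residue of RNA. It was between 0.104 and 0.431 for all windows of Nanog, Esrrb, Zfp42 and Nr5a2, which kept nearly none, and the median of all windows was 0.373. The Zfp42 window (0.423) and 1 of the Nr5a2 windows (0.431) lay above that median. The quartiles of all windows were 0.167 and 0.723. Only the Klf2 window and 1 of the Nanog windows (0.104) lay outside them. This grouping of 7 genes leaves out Klf5, Tbx3 and Prdm14, was made after the values were seen and is a description.

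Ratios of 1 factor to another within each library were compared for 6 factors. These were the 5 above and Esrrb, each with more than 3 reads in the clones. They give 15 pairs, and in 13 pairs the clones and controls did not overlap. The share of such pairs among all tested genes was not computed, so this count is a description only. Every pair with Esrrb was among the 13, and these rest on its 7 reads over the clones. Exact two-sided permutation tests gave a smallest p of 0.1, below which this test cannot go with 3 libraries a side, and a smallest adjusted p of 0.115 over the 15 pairs. No other test of the ratios was run. The log2 ratio of Klf5 to Klf2 averaged 1.91 ± 0.44 in the clones and -0.14 ± 0.48 in the controls (SD, n = 3 each). The log2 ratio of Klf5 to Tfcp2l1 averaged 1.40 ± 0.24 in the clones and -2.26 ± 0.40 in the controls. By scaled count Klf5 exceeded Tfcp2l1 in all 3 clones and was below it in all 3 controls. The pairs that overlapped were Tbx3 with Klf2 and Nr0b1 with Tfcp2l1, whose log2 ratios shifted by 0.85 and 0.42 between the groups.

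Several factors lie on chromosomes with a median below that of all genes. The median log2 fold change was -0.60 over 930 tested genes of chromosome 1 (Tfcp2l1, Prdm14 and Nr5a2), -0.57 over 491 of chromosome 14 (Klf5) and -0.49 over 800 of chromosome 8 (Klf2 and Zfp42). It was 0.41 on chromosome 6 (Nanog) and 0.29 on chromosome 5 (Tbx3). With the chromosome medians subtracted, all 10 factors were still called lower. Centred in this way, the log2 fold change was -1.71 for Klf5 and -3.78 for Tbx3.

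Levels of different genes were compared per kb of merged exon. In the clones Klf5 led at 98.2 ± 16.7 per kb, and its range overlapped that of Klf2 at 73.6 ± 17.2. Tfcp2l1 followed at 20.3 ± 0.639, Tbx3 at 16.1 ± 3.03 and Nr0b1 at 11.0 ± 3.95 per kb, with overlapping ranges for Tbx3 and Nr0b1. The remaining factors were at 0.376 per kb or less. The order was another in the controls, where Nanog stood first at 4326 ± 163 scaled counts per kb, followed by Zfp42 at 3339 ± 493 and Esrrb at 2736 ± 122. Klf2 and Tfcp2l1 came next at 1531 ± 500 and 1287 ± 338 per kb. Nr0b1, Klf5, Nr5a2 and Prdm14 had 530 ± 166, 476 ± 7.30, 328 ± 54.5 and 279 ± 55.9 per kb, and Tbx3 was last at 180 ± 20.7. The ranges of Zfp42 and Esrrb, of Klf2 and Tfcp2l1, of Nr0b1 and Klf5, and of Nr5a2 and Prdm14 overlapped between control libraries, so those neighbours did not differ beyond their spread.

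The control libraries differed among themselves for some factors and hardly for others. Their coefficient of variation was 1.53% for Klf5, 3.78% for Nanog and 4.45% for Esrrb, where counting alone gives 2.02%, 1.02% and 0.781%. It was 32.7% for Klf2, 31.3% for Nr0b1 and 26.3% for Tfcp2l1, where counting alone gives 1.89%, 3.25% and 0.908%. Control replicate 3 was at one end of the range for every factor. It was the highest control for Nanog, Esrrb, Tfcp2l1, Tbx3 and Prdm14 and the lowest for Zfp42, Klf2, Klf5, Nr0b1 and Nr5a2. The highest control exceeded the lowest by a ratio of 1.99 for Klf2, 1.93 for Nr0b1 and 1.70 for Tfcp2l1, and by 1.03 for Klf5.

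Klf4, which is not among the 10, moved the other way from Klf2 and Klf5. These 3 factors bind closely similar GC-rich sites and are known to replace one another in ESC self-renewal. Klf4 measured 12248, 16297 and 13962 in clones 5, 6 and 7, against 2366, 2510 and 2370 in control replicates 1, 2 and 3 (log2 fold change 2.54 ± 0.12). Summed per kb of exon, the 3 genes came to 4819 ± 681 in the clones and 2799 ± 529 in the controls (SD, n = 3 each), without overlap. Klf4 made up 96.4% ± 0.362 of that sum in the clones and 28.9% ± 4.95 in the controls. Klf2 made up 1.51% ± 0.140 in the clones and 53.7% ± 8.05 in the controls, and Klf5 made up 2.07% in the clones and 17.4% in the controls. Exact permutation tests of the sum and of each share gave p = 0.1, the smallest possible. Klf4 was higher and Klf2 and Klf5 were lower without overlap, so the share of Klf4 had to separate. The sum was higher without overlap, so the shares of Klf2 and Klf5 had to separate too. The tests of the 3 shares therefore add nothing to the single genes and the sum. These sums were chosen after the values were seen.

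**Figure D3:**
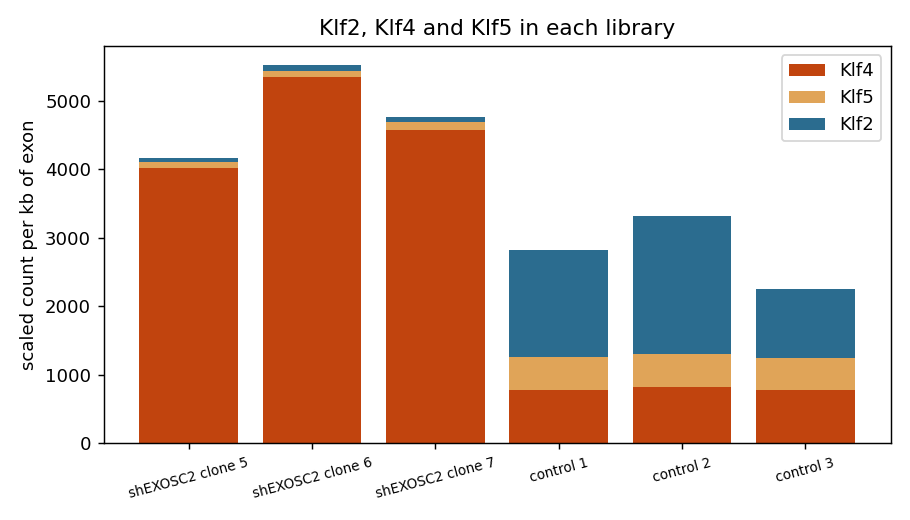
Stacked bars give scaled counts per kb of exon for Klf4, Klf5 and Klf2 in each library, shEXOSC2 clones left of controls. Klf4 makes up nearly all of each clone bar, 96.4% on average, and Klf2 the largest part of each control bar, 53.7% on average.

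Of the 19 tested KLF and SP genes outside the 10, 11 were lower, 5 were higher and 3 were not called, and their log2 fold changes had a median of -0.48 (-1.19 with no filter on low values). Over all tested genes, 38.3% were called lower and 35.2% higher. By fitted log2 fold change the 3 largest changes were those of Klf15, Sp5 and Klf17. With so few clone reads, these values depend on the pseudocount and on the control level. Klf15, a metabolic regulator, had 1 read in the clones and 403 in the controls. Sp5, a WNT target, and Klf17, a factor of naive human and early embryonic cells, had no read in the clones and 113 and 105 reads in the controls. Klf3, Klf7 and Klf13 were higher in the clones, with log2 fold changes of 2.15, 2.33 and 1.16, as was Klf6 at 0.59. They were chosen for mention after their values were seen. Of 24 paralogs of the other 8 factors, 18 were tested, 7 were lower, 4 were higher and 7 were not called, with a median of -0.02. None of the tested genes is a paralog of Nanog, Nr0b1 or Nr5a2. The list holds none for Nanog, and Nr0b2 and Nr5a1 are absent from the deposited genes. By fitted log2 fold change T and Grhl2, relatives of Tbx3 and Tfcp2l1, fell most. They measured 0 and 13.2 in the clones against 221 and 561 in the controls. Prdm16 had 15.7 in the clones and 280 in the controls. Esrra, the paralog of Esrrb that drives mitochondrial genes, was higher, at 1645 ± 388 in the clones and 334 ± 145 in the controls, and Esrrg was not tested because of its low counts. Yy1, the paralog of Zfp42, measured 2244 ± 20.2 in the clones and 2266 ± 307 in the controls. Of the CP2-family paralogs of Tfcp2l1, Tfcp2 was called lower at a log2 fold change of -0.45 and Ubp1 was not called at -0.03. Esrra, Esrrg, Yy1, Tfcp2 and Ubp1 were named after their values were seen.

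Genes around the factors moved in both directions. Within 250 kb of either end of the 10 genes, 42 other genes were tested, of which 22 (52.4%) were lower and 10 (23.8%) were higher, against 38.3% and 35.2% of all tested genes. Near Nanog, 6 of 13 tested neighbours were lower and 4 were higher. Slc2a3, a glucose transporter gene whose start is 94.2 kb from that of Nanog, measured 30.7 ± 9.83 in the clones and 50295 ± 15217 in the controls. Dppa3 and Gdf3, a maternal factor and a TGF-β ligand of the same ESC gene cluster, measured 0 and 6.50 in the clones, against 1133 and 1309 in the controls. Both neighbours of Zfp42 were lower. Triml2, 126 kb away, had no read in any clone and 2404 ± 342 in the controls, and Triml1 had no read in any clone and 1592 in the controls. Near Klf2, 5 of 13 were lower and 4 were higher, with Hsh2d falling most (log2 fold change -4.99). Near Klf5 all 3 were lower, with Dis3, the catalytic subunit of the exosome, at a log2 fold change of -2.21, and near Nr5a2 all 3 were lower, led by Gm19705 at -4.01. Gli2 near Tfcp2l1 and Vash1 near Esrrb had log2 fold changes of -6.14 and -2.67. Neither of the 2 genes near Prdm14 was called, and the larger difference was 0.38 for Slco5a1. No neighbour of Tbx3 or Nr0b1 was tested. Dppa3, Gdf3, Triml1 and Rimklb were named after their values were seen.

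**Figure D4:**
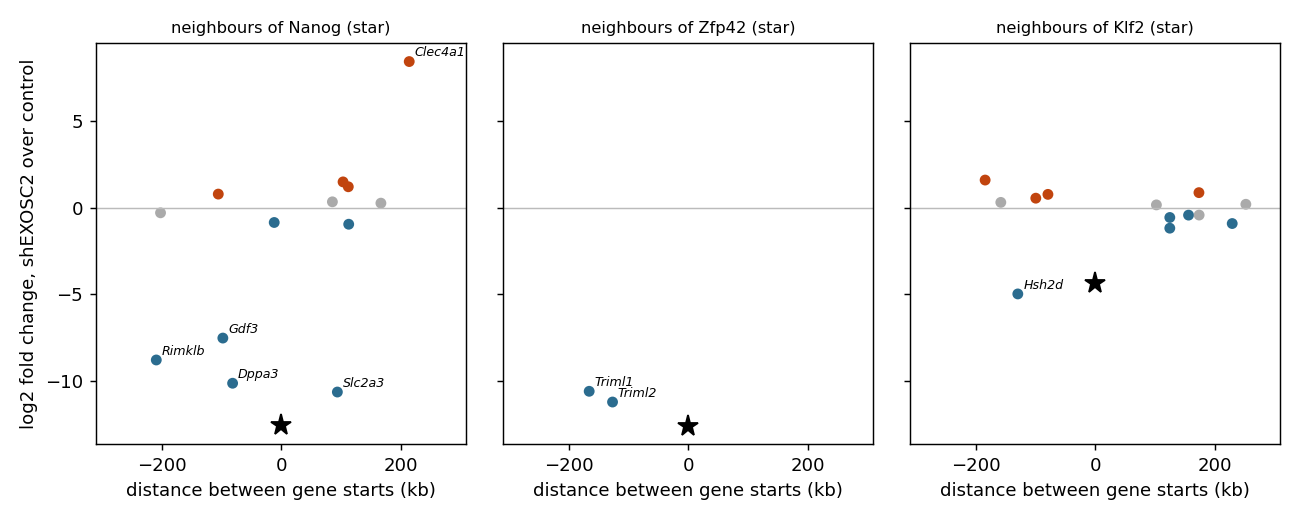
Each point is a tested gene within 250 kb of Nanog, Zfp42 or Klf2, placed by the distance between gene starts (kb) and by log2 fold change, blue for lower, orange for higher and grey for not called, with the factor as a star at 0. Slc2a3, Dppa3, Gdf3 and Rimklb lie low beside Nanog and Triml1 and Triml2 beside Zfp42, while most neighbours of Klf2 lie near 0.

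The rest of the pluripotency programme was examined through gene lists, and some genes, such as Otx2, Stat3 and Fgfr2, are in more than one of them. Of 23 other pluripotency transcription factors, 17 (73.9%) were lower, 3 were higher and 3 were not called, against 38.3% lower and 35.2% higher among all tested genes. Their median log2 fold change was -2.10. Utf1, Otx2 and Mycn had the lowest fitted log2 fold changes, which for genes at no read depend on the pseudocount and on the control level. Utf1, a chromatin-bound ESC factor, and Otx2, a driver of the exit from the naive state, had no read in any clone, against 3052 ± 1644 and 805 ± 125 in the controls. Mycn measured 8.82 ± 1.69 in the clones and 3064 ± 1228 in the controls. The core factors went apart. Pou5f1 measured 89025, 93458 and 90860 in clones 5, 6 and 7, against 18987, 26446 and 17702 in control replicates 1, 2 and 3, while Sox2 measured 2044, 3617 and 2755 in the clones, against 12801, 13350 and 9350 in the controls. The third gene called higher, besides Pou5f1 and Klf4, was Stat3 at a log2 fold change of 0.96. How reads shared with the processed pseudogenes of Pou5f1 were counted is uncertain.

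The genes listed here for the naive state that are not transcription factors were lower almost throughout. Of 21 tested, 20 were lower and 0 were higher in limma, also at an unadjusted p under 0.05 and in edgeR and DESeq2. Of all tested genes, 38.3% were lower and 35.2% higher. The list was chosen with earlier results of these data known, and whether its genes are particular to the naive state was not tested. Formative and primed factors, described below, were also lower in 14 of 19 cases. The list had a median of -8.39, or -7.53 with genes at no read set to their bound. The list is led by Tdgf1, the Nodal co-receptor CRIPTO, which measured 0.995, 2.05 and 2.77 in clones 5, 6 and 7, against 25724, 22782 and 26371 in control replicates 1, 2 and 3. Lefty2, a Nodal antagonist, and Trh, a hormone precursor, had 3 reads each in the clones, against 34375 and 20632 reads in the controls. Upp1, a uridine phosphorylase, was the gene not called, and without control replicate 3 it was called higher (log2 fold change 0.48, limma adjusted p = 0.024).

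Of 18 tested signalling inputs of the network, 10 were higher, 5 (27.8%) were lower and 3 were not called, against 35.2% higher and 38.3% lower among all tested genes. Their median was 0.79. The list pools genes that carry these signals with genes that restrain them, such as Socs3. Its count and median therefore give no direction of signalling. Lifr, the LIF receptor subunit, measured 4332 ± 292 in the clones and 1403 ± 187 in the controls, and Stat3 measured 6088 ± 229 in the clones and 3129 ± 85.6 in the controls. Socs3, a STAT3 target and feedback inhibitor, was not called, at 3666 ± 440 in the clones and 2832 ± 602 in the controls. These 3 were named after their values were seen. So was Id1, the largest rise of the list, at 3759 ± 654 in the clones and 427 ± 91.8 in the controls. The largest falls were Axin2, a target of canonical WNT signalling, at 5.12 ± 2.79 in the clones and 285 ± 8.30 in the controls, Fgfr2 at 19.6 ± 10.9 in the clones and 533 ± 133 in the controls, and Bmp4 at 53.0 ± 15.7 in the clones and 545 ± 89.9 in the controls.

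Of 7 genes that PRDM14 is known to repress in mouse ESCs, 4 were lower, 1 was higher and 2 were not called, where 38.3% of all tested genes were lower and 35.2% higher. So short a list is given as single values only. The de novo methyltransferase gene Dnmt3b measured 65.3 ± 5.48 in the clones and 2997 ± 770 in the controls, and its cofactor gene Dnmt3l measured 3.28 ± 0.629 in the clones and 2404 ± 577 in the controls. Fgfr1, the one called higher and named after its value was seen, measured 10476 ± 769 in the clones and 3428 ± 503 in the controls. Formative and primed factors, which follow the naive ones in normal differentiation, were lower in 14 of 19 cases (73.7%, against 38.3% of all tested genes) and higher in 2 (35.2% of all tested genes), with a median of -5.06, or -4.30 with genes at no read set to their bound and -2.91 with a pseudocount of 5. Nodal measured 1.32 ± 0.634 in the clones and 1020 ± 261 in the controls.

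**Figure D5:**
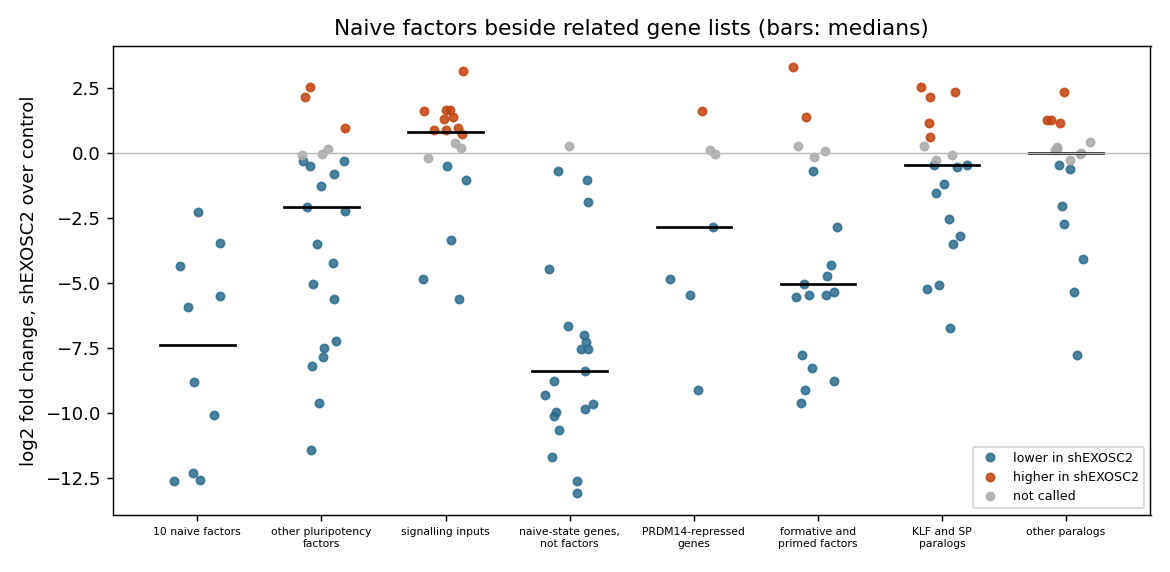
Each point is a tested gene by log2 fold change, blue for lower and orange for higher in shEXOSC2 and grey for not called, with list medians as bars. The 10 naive factors (median -7.38) and the other naive-state genes (-8.39) lie lowest. The signalling inputs, which include inhibitors, lie highest (0.79).

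The genes whose profile over the 6 libraries lay nearest to the median profile of the 10 factors were Ankrd45, Pecam1, Serpinb6c, Nrsn1 and Cds1. The measure was the root mean square difference of log2(scaled count + 1), each gene relative to its control mean, and it ran from 0.0905 for Ankrd45 to 0.167 for Cds1. Pecam1, an adhesion gene that naive ESCs express, measured 11.1 ± 2.20 in the clones and 1875 ± 176 in the controls. Among the 10 factors themselves, Prdm14 and Tfcp2l1 lay closest to the median profile, at 1.04 and 1.05. Zfp42 lay furthest from it, at 3.70, and Klf5 was at 3.61. The median profile is thus not that of any single factor, and the named genes lie nearer to it than every factor.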

How the data were processed

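Poly(A) RNA was measured in 6 libraries, made from 500 ng of total RNA with a stranded TruSeq kit and 8 PCR cycles, per the labels' protocols. Named in the submitters' processing notes are STAR 2.5.0a, cutadapt 1.6, DESeq 1.22.1, HTSeq 0.5.3 and the mm10 build, without settings. The sources used here do not give the strand setting of the counting. The deposited signal values are read counts per gene divided by a DESeq size factor, per the file header and those notes. Dividing by the step of each library gave whole reads for 100.0% of values (tolerance 0.001 read), and those reads were recovered. The table holds no gene below 15 reads over the 6 libraries. Replicates differed beyond counting noise, with a chi-square per degree of freedom of 12.2 to 15.6 between clones and 36.3 to 62.1 between controls. Of the 17912 genes, 17860 matched GENCODE M21 (GRCm38, the assembly of mm10), which gave positions and exon lengths.

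Groups came from titles. limma 3.58.1 (eBayes with trend) took log2(value + 1) of every gene whose mean reached 10, with Benjamini-Hochberg adjustment over all of them. On that scale the fold changes of low genes come out too small. The fit was tested on simulated data with changes smaller than those of the 10 factors, so that test does not cover falls of their size. Alternatives were other pseudocounts, filters and scalings, recovered reads in edgeR 4.0.16 (11150 genes called) and in DESeq2 1.42.0 (11132), chromosome centring and leaving out each library. Gene lists are described by counts and medians beside all genes, with no set test. The members and lists were chosen with earlier results of these data known. The named genes were the 10 factors, Exosc2, the 3 largest called changes of each list with Klf4, Pou5f1 and Sox2, the neighbour within 250 kb with the largest change, and the 5 nearest profiles. Other genes outside this rule are marked in the text as named after their values were seen, except Upp1 and Tbx3os1. Upp1 is named as the gene of its list that was not called, and Tbx3os1 for its overlap with Tbx3. Cell type marker genes are named as defining members of their lists. Promoter windows came from RefSeq. Analyses used R 4.3.3 and Python 3.11.15.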

Additional observations from a re-analysis of the deposited data

How the results depend on the processing

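All 10 factors were called lower, and none higher, under each of the 15 alternatives run, and Exosc2 kept its call and direction under the 14 run for it. Log2 fold changes ranged from -2.46 to -1.71 for Klf5 and from -15.64 to -10.28 for Zfp42, whose value with no clone read is set by the pseudocount or the tool. No paired analysis was possible because the clones are numbered 5 to 7 and the controls 1 to 3. Quantile normalization moved the median of all genes by -0.11. List counts stayed within 1.5 times, except that leaving out single libraries gave 0 to 1 naive-state genes called higher (Upp1 without control replicate 3), against 0 with all libraries. List medians moved by more than the spread between libraries as follows, and the cause was not tested except where fewer genes or samples entered. The other pluripotency factors had -1.69 with a mean of at least 50. The signalling inputs had 0.69 with quantile normalization, 0.69 with edgeR, 0.70 with DESeq2 and 0.62 to 0.79 leaving out libraries. The naive-state genes had -6.88 with a pseudocount of 5 and -7.70 with quantile normalization. The formative and primed factors had -5.48 and -2.91 with pseudocounts of 0.5 and 5, -5.41 under the filter at 50, -3.25 under quantile normalization, -5.54 with edgeR, -5.53 with DESeq2 and -5.42 to -4.86 leaving out libraries. The KLF and SP genes had -1.19 without a filter and -0.67 with quantile normalization. The other paralogs had -0.20 with quantile normalization and -0.057 to 0.046 leaving out libraries. Depth limits the 5 nearly silent factors, whose remaining level rests on 0 to 7 reads.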

Other observations

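Some neighbours of the naive factors were higher in the clones, all named here after their values were seen. Clec4a1, a C-type lectin gene of myeloid cells whose start is 214 kb from that of Nanog, averaged 560.0 in the clones and 0.695 in the controls. Foxj2 and Apobec1, also near Nanog, averaged 981 and 561 in the clones and 430 and 329 in the controls. Near Klf2, the tropomyosin gene Tpm4 averaged 13550 in the clones and 4631 in the controls.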
